A study of Homo sapiens with 12 samples.

Results

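The miR-17-92 and miR-106b-25 clusters are related groups of microRNAs (miRNAs), each cut from 1 primary transcript. Their 9 guide miRNAs were taken by name from the miRNA count table, and MIR17HG, the host gene of miR-17-92, was taken from the RNA count table. These 10 members stand among 58353 names in all, 2588 miRNA names and 55765 gene names. In transcript order the 6 guides of miR-17-92 are hsa-miR-17-5p, hsa-miR-18a-5p, hsa-miR-19a-3p, hsa-miR-20a-5p, hsa-miR-19b-3p and hsa-miR-92a-3p. The 3 guides of miR-106b-25 are hsa-miR-106b-5p, hsa-miR-93-5p and hsa-miR-25-3p. The prefix for human is left out in the sentences that follow.

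HEK293T cells, an established line derived from human embryonic kidney, received either an siRNA against ERI2 or a control siRNA. Both groups were given 50 nM siRNA in a first and a second transfection 48 hours apart and were collected 72 hours after the later one. Long RNA and small RNA were sequenced from 3 libraries per group each, 12 libraries in all, and the question asked here is how far the cluster miRNAs and their host RNA differ between the groups. The labels name the line HEK293T while the growth protocol names HEK293, the treatment text also lists ERI-1 siRNA and a microarray harvest, and no second ERI2 siRNA or rescue is described. Whether replicates were separate cultures is not in the labels, so the p-values speak only of how far these particular libraries spread, and that spread may be technical.

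A miRNA acts through its seed, the bases near its 5′ end that pair with target messenger RNAs, and loading of a guide strand onto an Argonaute protein lowers the output of those targets. The miR-17-92 cluster, also called oncomiR-1, is driven by MYC and E2F factors and is abundant in proliferating embryonic and tumour cells. The miR-106b-25 cluster lies in an intron of MCM7, which encodes a subunit of the replicative helicase, and repeats the miR-17 and miR-92 seeds of the larger cluster.

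The mature sequences show which members share a seed. All 9 guides, their 9 opposite arms and 5 paralogs were matched by name in the RefSeq miRNA table (GRCh38.p14). Capitals mark the seed, bases 2 to 8 from the 5′ end. The first 4 sequences form the miR-17 family, the next carries the miR-18 seed, and then follow the miR-19 pair and the miR-92 pair.
hsa-miR-17-5p: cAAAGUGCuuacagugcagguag
hsa-miR-20a-5p: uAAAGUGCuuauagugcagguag
hsa-miR-93-5p: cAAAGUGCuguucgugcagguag
hsa-miR-106b-5p: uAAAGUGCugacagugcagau
hsa-miR-18a-5p: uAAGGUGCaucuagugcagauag
hsa-miR-19a-3p: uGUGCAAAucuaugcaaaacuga
hsa-miR-19b-3p: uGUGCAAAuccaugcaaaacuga
hsa-miR-92a-3p: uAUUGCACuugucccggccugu
hsa-miR-25-3p: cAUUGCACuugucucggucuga

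miR-19a-3p and miR-19b-3p differ at 1 position, miR-17-5p and miR-20a-5p at 2 positions, and miR-92a-3p and miR-25-3p at 4 positions. The table lists 2 hairpins for miR-19b-3p and 2 for miR-92a-3p, so counts under these names can also come from outside miR-17-92. Paralogs from the X-linked cluster are as close: miR-106a-5p differs from miR-17-5p at 1 position and miR-18b-5p from miR-18a-5p at 1 position. Reads could be shared between such names, and the miRNA aligner used is not named in the labels. The guides are 21 to 23 bases long, with a GC content from 34.8% in miR-19a-3p to 54.5% in miR-92a-3p. Their median GC was 43.5%, against 59.1% over the tested miRNA names with a sequence (1157 of 1316), 50.0% over names lower and 70.0% over names higher after ERI2 siRNA. The part of base composition in the results was not tested.

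The miRNA libraries held between 0.723 and 1.03 (in units of 1e+06 counts) and the RNA libraries between 29.1 and 38.3. The make-up of the miRNA libraries differed between the groups. Names numbered up to 1000, counted together with let-7, took 77.0% to 78.3% of control counts and 40.8% to 47.5% of ERI2 siRNA counts. The most abundant control miRNA, miR-10a-5p, took 24.3% to 25.5% of control counts and 8.49% to 11.9% of ERI2 siRNA counts. TMM, a scaling that centres most names on no change, gave factors of 0.639 to 0.677 in control and 1.45 to 1.63 in ERI2 siRNA libraries. Levels below are counts per 1e+06 scaled counts (CPM), under TMM unless total library size is named. The median log2 fold change of all 1316 tested names was 0.05 under TMM and 1.27 under total library size. ERI2 mRNA itself, an exonuclease gene and the target of the siRNA, was at 54.4, 58.2 and 54.4 CPM in control and 34.6, 35.8 and 32.5 CPM in ERI2 siRNA libraries. The log2 level of ERI2 fell by 0.70 (SE 0.0762), with an adjusted p of 0.000683 by the quasi-likelihood test of edgeR. Adjusted p-values of edgeR are over all tested genes, and for miRNAs over all 1316 tested miRNA names. The 7 genes chosen as HEK293 markers summed to 219 to 263 CPM in control and 203 to 234 CPM in ERI2 siRNA libraries. PAX2 was the lowest of them at 0.486 to 1.32 CPM. Of these 7 markers 2 were called lower and 0 higher, beside 4.25% and 4.29% of all tested genes. NEFL fell by 0.50 (adjusted p = 0.0137, edgeR) and INA by 0.49 (adjusted p = 0.0274), while NEFM measured -0.44 (adjusted p = 0.0530). The RNA counts of calls lean on both replicate 1 libraries: leaving them out raised the genes called higher from 809 to 2622 and the genes called lower from 800 to 2670. Of markers of other cell types, 4 for keratinocytes summed to at most 0.139 CPM (KRT5 and KRT6A at 0), 3 for liver to at most 0.507 CPM and 5 for blood to 0.853 to 1.603 CPM (CD3E and HBB at 0, LCP1 the highest at 0.396 to 1.08 CPM).

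All 9 cluster miRNAs were lower after ERI2 siRNA, under TMM and under total library size, whereas a scaling to the lower-numbered names, given further on, left 3 of them lower and turned miR-92a-3p. Their log2 fold changes ran from -2.60 in miR-106b-5p to -1.82 in miR-92a-3p under TMM, and from -1.38 to -0.60 under total library size in the same pair of miRNAs. The count of 9 of 9 stands beside 23.0% of all tested names called lower and 11.1% called higher under TMM, and beside 13.6% lower and 78.3% higher under total library size. For each of the 9 the 3 ERI2 siRNA libraries lay below the 3 control libraries under both scalings, as they did for 26.0% of tested names under TMM and 14.1% under total library size. In bulk samples fewer cells with a miRNA and less of it per cell cannot be told apart.

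**Figure D1:**
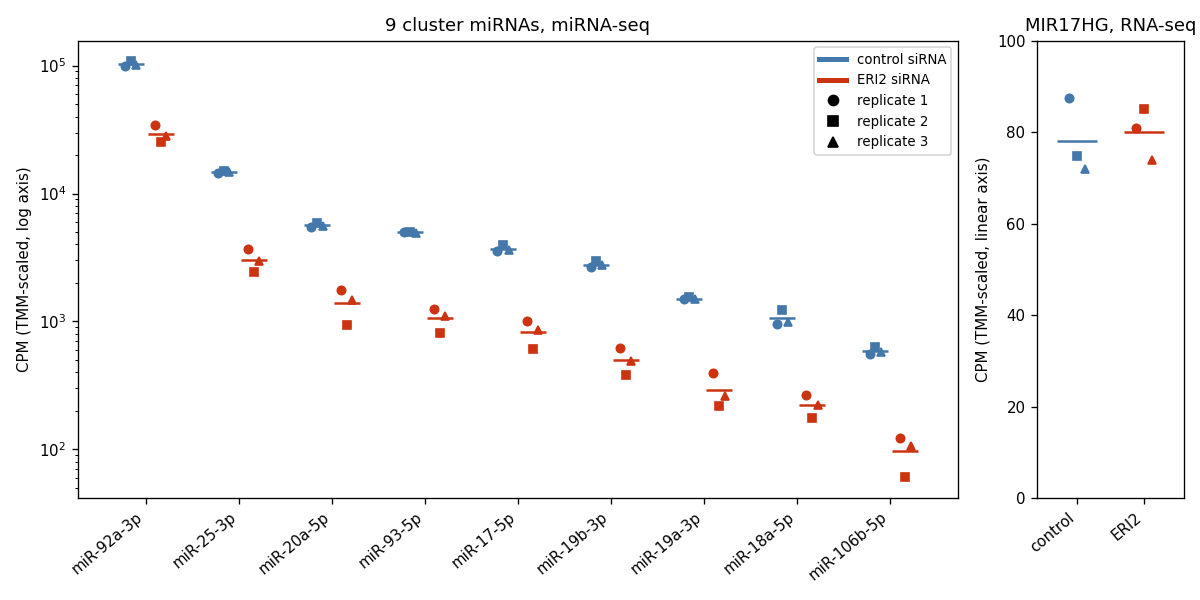
Levels of the 9 cluster miRNAs (left, CPM under TMM on a log axis) and of MIR17HG (right, CPM on a linear axis from 0) in each library. Points are libraries, horizontal lines are group means of 3 libraries, blue is control siRNA and red is ERI2 siRNA. Under TMM every miRNA has its red points below its blue points, with replicate 2 the lowest of the red points, while the MIR17HG points of both groups overlap and lie between 72.0 and 87.4 CPM.

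Within the miR-17 family, which is known for holding down cell-cycle inhibitors such as CDKN1A, each of the 4 members was between 16.4% and 24.5% of its control level under TMM. miR-17-5p measured 3552, 3963 and 3594 CPM in control and 1002, 615 and 864 CPM in ERI2 siRNA libraries. The log2 level fell by 2.16 (SE 0.156, adjusted p = 5.36e-08, edgeR's quasi-likelihood test) and by 0.95 under total library size (adjusted p = 6.52e-09). All ERI2 siRNA values of miR-17-5p lay below all control values. miR-20a-5p, its near-copy in the same cluster, measured 5465, 5917 and 5573 CPM against 1753, 940 and 1465 CPM. It fell by 2.03 (SE 0.180, adjusted p = 4.72e-07, edgeR) and by 0.81 under total library size (adjusted p = 1.93e-06). The groups were apart here too, and the ERI2 siRNA libraries of miR-20a-5p spread more than the control libraries.

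The family's members in miR-106b-25 moved in the same direction. miR-93-5p measured 5006, 5009 and 4913 CPM in control and 1256, 812 and 1103 CPM in ERI2 siRNA libraries. Its fall was 2.23 on the log2 scale (SE 0.145, adjusted p = 2.37e-08, edgeR) and 1.02 under total library size. miR-106b-5p, the least abundant of the 9 guides, had the steepest fall. It measured 558, 631 and 579 CPM against 123, 60.7 and 105.6 CPM, from 304, 308 and 269 counts against 182, 73 and 150 counts. It fell by 2.60 (SE 0.194, adjusted p = 7.54e-08, edgeR) and by 1.38 under total library size (adjusted p = 4.05e-10). The summed level of the 4 members with this seed was 22.6% of control under TMM and 52.3% under total library size.

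miR-18a-5p, whose maturation is known to depend on the RNA-binding protein HNRNPA1, measured 961, 1232 and 990 CPM in control and 268, 177 and 222 CPM in ERI2 siRNA libraries. The log2 level fell by 2.25 (SE 0.155, adjusted p = 3.41e-08, edgeR) and by 1.03 under total library size (adjusted p = 5.1e-09). The groups did not overlap, and the ERI2 siRNA mean was 21.0% of control under TMM.

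The miR-19 pair, known as a main contributor to the cluster's oncogenic activity in lymphoma models, had the steepest falls within miR-17-92. miR-19b-3p measured 2649, 2954 and 2748 CPM in control and 619, 380 and 493 CPM in ERI2 siRNA libraries. The log2 level fell by 2.48 (SE 0.155, adjusted p = 1.95e-08, edgeR) and by 1.27 under total library size (adjusted p = 4.64e-12). miR-19a-3p measured 1488, 1548 and 1500 CPM against 394, 219 and 263 CPM. Control values of miR-19a-3p lay within a narrow band and its ERI2 siRNA values were spread more widely below it. The fall of miR-19a-3p was 2.37 (SE 0.176, adjusted p = 7.03e-08, edgeR) and 1.15 under total library size.

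The miR-92 seed is carried by the most abundant guide of each cluster. miR-92a-3p, an abundant miRNA in many dividing cells, measured 99111, 107945 and 101882 CPM in control and 34326, 25215 and 28004 CPM in ERI2 siRNA libraries. The log2 level fell by 1.82 (SE 0.139, adjusted p = 9.08e-08, edgeR) and by 0.60 under total library size (adjusted p = 6e-06), the smallest fall of the 9 under both scalings. miR-25-3p, its counterpart in miR-106b-25, measured 14608, 14920 and 14781 CPM against 3699, 2441 and 2983 CPM. miR-25-3p fell by 2.28 (SE 0.145, adjusted p = 2.09e-08, edgeR) and by 1.06 under total library size (adjusted p = 6.09e-11). Neither miRNA had overlapping groups.

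The order of levels was the same in both groups: miR-92a-3p, miR-25-3p, miR-20a-5p, miR-93-5p, miR-17-5p, miR-19b-3p, miR-19a-3p, miR-18a-5p and miR-106b-5p. Dividing by length in bases left this order as it was. Each miRNA was above the next in 6 of 6 libraries. In control cells no neighbours in this order overlapped in their 3 values. After ERI2 siRNA the ranges of miR-20a-5p and miR-93-5p, miR-93-5p and miR-17-5p, miR-17-5p and miR-19b-3p, miR-19b-3p and miR-19a-3p, and miR-19a-3p and miR-18a-5p overlapped. Among all miRNA names miR-92a-3p ranked 3 in control and 5 after ERI2 siRNA. miR-25-3p went from rank 15 to 39, miR-17-5p from 49 to 116 and miR-106b-5p from 193 to 410.

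Whether a cluster miRNA was lower, and by how much, depends on what it is measured against. The scalings used give relative levels only. The median log2 fold change of the 9 guides was -2.25 under TMM beside 0.05 for all tested names, and -1.03 under total library size beside 1.27. A further scaling, chosen after the values were seen, used the summed counts of let-7 and names numbered up to 1000 as the library size. It gave a median of -0.23 for the 9 guides beside 2.07 for all names. Measured from the median of all names, the 9 guides stood at -2.30 under all 3 scalings. That sameness is by construction, because a change of scaling moves all names by nearly the same amount. Under this further scaling 3 of 9 were called lower, beside 5.47% of all names lower and 84.9% higher: miR-106b-5p (-0.59, adjusted p = 0.00122), miR-19b-3p (-0.47, adjusted p = 0.00299) and miR-19a-3p (-0.36, adjusted p = 0.0286), by edgeR. miR-92a-3p turned to 0.21 (adjusted p = 0.0664) and miR-20a-5p measured -0.02 (adjusted p = 0.890).

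**Figure D2:**
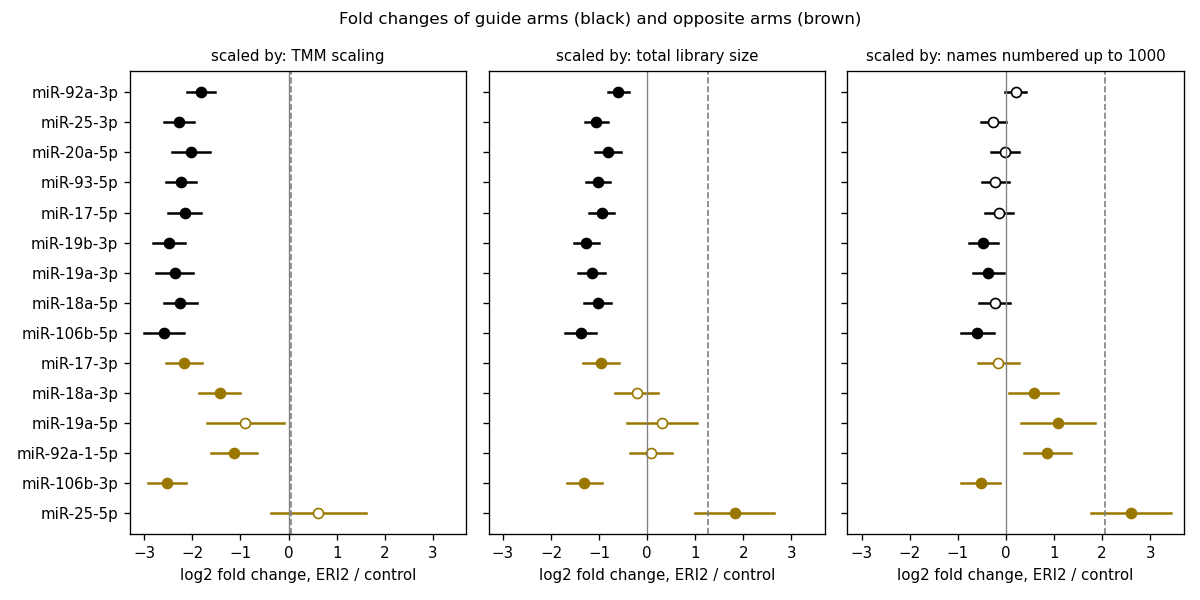
Log2 fold changes of ERI2 siRNA over control for the 9 guides (black) and the 6 tested opposite arms (brown) under TMM, total library size and scaling to names numbered up to 1000. Bars are 95% confidence intervals, filled points passed an adjusted p of 0.05, and the dashed line is the median of all tested names. The guides move right together with that line from one panel to the next, and the opposite arm of miR-25 sits furthest right in each panel.

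Other miRNAs of similar standing gave values close to those of the clusters. Among 169 other names numbered up to 1000 with a mean of at least 100 CPM, 117 were lower and 14 higher under TMM, with a median log2 fold change of -2.17 against -2.25 for the 9 guides. Under total library size 104 of the 169 were lower and 60 higher, with a median of -0.96. Among 263 names numbered above 1000 at that level, 42 were lower and 80 higher under TMM, with a median of 0.19, and 13 lower and 239 higher under total library size, with a median of 1.42. The 5 miRNAs whose profiles over the 6 libraries were nearest to the mean of the 9 guides were miR-941, miR-197-3p, miR-30e-3p, miR-769-5p and miR-378c. Their root-mean-square differences from it were 0.0337 to 0.0667 on the log2 scale, out of 432 candidates. The 9 guides' own differences ran from 0.0507 for miR-93-5p to 0.239 for miR-92a-3p, so these 5 miRNAs were as near to the mean as the nearest members.

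Shares within a cluster do not depend on the scaling. miR-92a-3p made up 87.5%, 87.4% and 87.6% of the miR-17-92 counts in control and 89.5%, 91.5% and 89.4% in ERI2 siRNA libraries. The other 5 guides of miR-17-92 all had lower shares in every ERI2 siRNA library than in any control library. miR-19b-3p went from 2.34%, 2.39% and 2.36% to 1.61%, 1.38% and 1.57%, a difference of -0.843 percentage points and the largest among these 5. miR-19a-3p went from 1.31%, 1.25% and 1.29% to 1.03%, 0.793% and 0.841%. miR-17-5p averaged 3.14% ± 0.0590 against 2.53% ± 0.272 (SD, n = 3), and miR-18a-5p 0.899% ± 0.0850 against 0.684% ± 0.0362. miR-20a-5p averaged 4.80% ± 0.0209 against 4.22% ± 0.702, with its ERI2 siRNA replicates 1 and 3 close to control. Without ERI2 siRNA replicate 2 that difference of -0.582 percentage points was -0.178. Each of these 6 differences gave a 2-sided exact permutation p of 0.1, the smallest that 3 against 3 libraries allow (0.129 adjusted over 9 shares). The differences between groups were therefore complete in rank, but the design could not pass 0.05.

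In miR-106b-25 only the share of miR-106b-5p had groups apart. miR-25-3p held 72.4%, 72.6% and 72.9% of the cluster's counts in control and 72.8%, 73.7% and 71.2% in ERI2 siRNA libraries (exact permutation p = 0.9). miR-93-5p held 24.5% ± 0.307 against 25.2% ± 0.991 (SD, n = 3, exact permutation p = 0.3). Both had overlapping groups. miR-106b-5p went from 2.76%, 3.07% and 2.86% to 2.42%, 1.83% and 2.52%, without overlap (exact permutation p = 0.1). Its difference of -0.639 percentage points was -0.426 without ERI2 siRNA replicate 2. The widest exact 95% interval in any library was 2.76 percentage points for miR-25-3p and 0.859 points for miR-106b-5p. These intervals cover counting error only, since reads without molecular identifiers are not independent molecules.

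**Figure D3:**
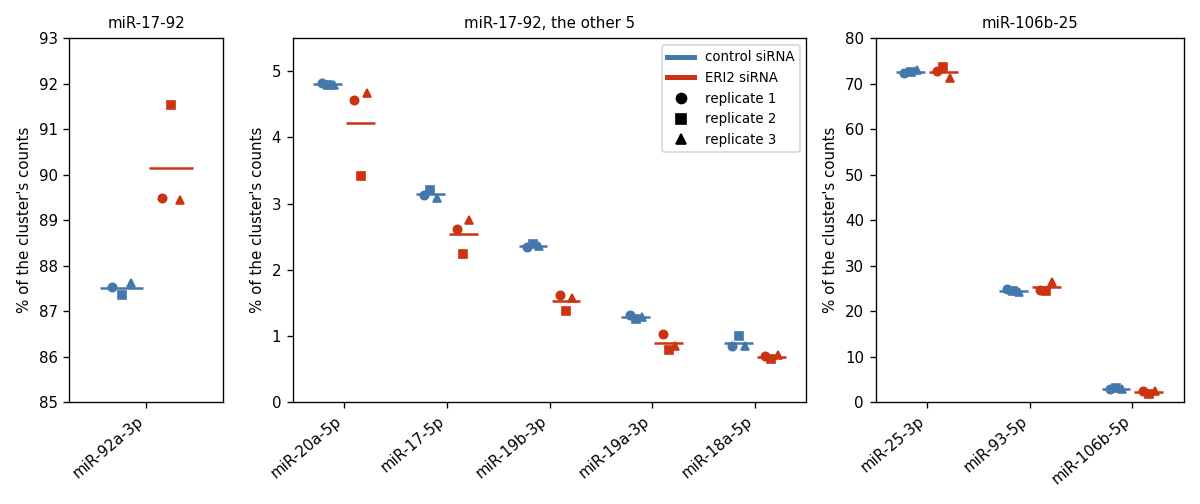
Share of each guide in the summed counts of its cluster, in percent, by library. The left panel shows miR-92a-3p on an axis that runs from 85% to 93% and does not start at 0, and the other panels start at 0. Points are libraries, lines are means of 3, blue is control and red is ERI2 siRNA. miR-92a-3p is higher and the other 5 miR-17-92 guides are lower in every red library, while miR-25-3p and miR-93-5p overlap.

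Ratios between members showed the same shift. The ratio of miR-92a-3p to miR-19b-3p counts was 37.4, 36.5 and 37.1 in control and 55.5, 66.4 and 56.8 after ERI2 siRNA. The ratio of miR-92a-3p to miR-25-3p went from 6.97 ± 0.235 to 9.67 ± 0.577 (SD, n = 3), and that of miR-93-5p to miR-106b-5p from 8.47 ± 0.523 to 11.3 ± 1.77. Each of these 3 ratios had non-overlapping groups (exact permutation p = 0.1, 0.267 adjusted over 8 ratios). The other 5 ratios overlapped. Among them, miR-19b-3p over miR-19a-3p was 1.84 ± 0.0644 against 1.73 ± 0.151, and miR-20a-5p over miR-17-5p was 1.53 ± 0.0305 against 1.66 ± 0.115 (exact permutation p = 0.3 for each).

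The summed miR-17-92 level was 27.5% of control under TMM and 64.2% under total library size, and that of miR-106b-25 20.6% and 47.9%. As a share of counts on let-7 and names numbered up to 1000, miR-17-92 took 9.85% ± 0.279 in control and 11.0% ± 0.534 after ERI2 siRNA (SD, n = 3). On the same base miR-106b-25 took 1.70% ± 0.0560 and 1.42% ± 0.110. On this base the ERI2 siRNA values of miR-17-92 were all above and those of miR-106b-25 all below the control values, and no test was made of these sums. The first sum is mostly miR-92a-3p, and the 8 other guides together took 2.94% ± 0.0807 against 2.51% ± 0.258.

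Each hairpin also yields an opposite arm, the strand usually discarded when the guide is loaded. For 4 of the 9 hairpins the opposite arm took a larger share of the hairpin's counts in every ERI2 siRNA library than in any control library. The same held for the rarer arm in 36.2% of 163 hairpins, the clusters included, whose arms share a name and summed to at least 100 counts in every library. These are the opposite arms of the 4, with bases 2 to 8 in capitals.
hsa-miR-18a-3p: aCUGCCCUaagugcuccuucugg
hsa-miR-19a-5p: aGUUUUGCauaguugcacuaca
hsa-miR-92a-1-5p: aGGUUGGGaucgguugcaaugcu
hsa-miR-25-5p: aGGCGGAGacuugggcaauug

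The share of miR-25-5p went from 0.0878%, 0.0137% and 0.0727% in control to 0.455%, 0.542% and 0.329%, from 7, 1 and 5 counts to 25, 16 and 14 counts. miR-18a-3p went from 6.71% ± 1.32 to 11.1% ± 0.781 (SD, n = 3), and miR-19a-5p from 1.13% ± 0.507 to 3.08% ± 0.239. miR-92a-1-5p went from 0.0738% ± 0.0171 to 0.115% ± 0.0159. For miR-92a-1 and miR-19b-1 the share is of counts that include all of miR-92a-3p or miR-19b-3p. Each of these guides has 2 hairpins, so the share is not of 1 hairpin alone. The group ranges were apart in these 4 hairpins (exact permutation p = 0.1 for each, 0.225 adjusted over 9 hairpins), so none passed 0.05. Counts of miR-25-5p and miR-19a-5p were at most 25 in any library. The other 5 overlapped: miR-106b-3p, the best represented opposite arm, took 28.2% ± 1.15 against 29.6% ± 5.03, and miR-17-3p took 3.99% ± 0.487 against 4.05% ± 0.941. The opposite arms of miR-20a, miR-19b-1 and miR-93 had at most 10 counts in any library.

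**Figure D4:**
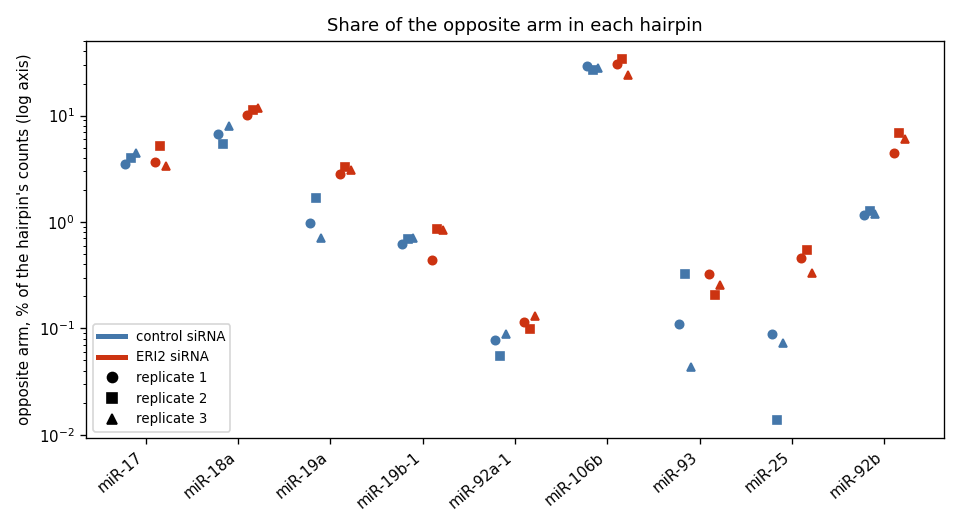
Share of the opposite arm in the counts of each hairpin, in percent on a log axis, for 8 hairpins of both clusters and for miR-92b. For miR-92a-1 and miR-19b-1 the guide counts can include reads from another hairpin. Points are libraries, blue is control and red is ERI2 siRNA, and miR-20a is left out because it has libraries at 0. The red points lie above the blue points for miR-18a, miR-19a, miR-92a-1, miR-25 and miR-92b.

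As levels, the opposite arms did not move together. Of the 6 tested, 4 were lower and 0 higher under TMM, and 2 lower and 1 higher under total library size, while scaling to names numbered up to 1000 gave 1 lower and 4 higher. The shares over all tested names were those given above for the guides, with 23.0%, 13.6% and 5.47% lower and 11.1%, 78.3% and 84.9% higher in the same order. Under scaling to names numbered up to 1000 the 4 higher arms were miR-18a-3p at 0.58, miR-19a-5p at 1.09, miR-92a-1-5p at 0.86 and miR-25-5p at 2.60. Under TMM miR-106b-3p fell by 2.53 on the log2 scale (adjusted p = 5.94e-08, edgeR) and miR-17-3p fell by 2.18 (adjusted p = 1.25e-07), near the falls of their guides. miR-18a-3p fell by 1.43 (adjusted p = 4.16e-05) but measured -0.22 under total library size (adjusted p = 0.343). miR-92a-1-5p fell by 1.14 under TMM (adjusted p = 0.000983) and measured 0.07 under total library size (adjusted p = 0.751). miR-19a-5p measured -0.90 under TMM (adjusted p = 0.0817) and 0.31 under total library size. miR-25-5p measured 0.62 under TMM (adjusted p = 0.340) and rose by 1.82 under total library size (adjusted p = 8.71e-05).

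A paralog outside both clusters shares the miR-92 seed and was abundant enough to compare.
hsa-miR-92b-3p: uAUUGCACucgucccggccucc
It measured 12288, 12994 and 12330 CPM in control and 4032, 3015 and 3722 CPM after ERI2 siRNA. The log2 level fell by 1.804 (adjusted p = 3.41e-08, edgeR) and by 0.58 under total library size (adjusted p = 1.19e-05), beside 1.82 and 0.60 for miR-92a-3p, and turned to 0.22 under scaling to names numbered up to 1000. The ratio of miR-92a-3p to miR-92b-3p was 8.21 ± 0.128 in control and 8.13 ± 0.533 after ERI2 siRNA (SD, n = 3, exact permutation p = 1). Its opposite arm miR-92b-5p measured 153 ± 13.2 against 217 ± 26.4 CPM and rose by 0.50 (adjusted p = 0.0157) and, under total library size, by 1.73 (adjusted p = 2.43e-13). Without control replicate 1, control replicate 3 or ERI2 siRNA replicate 3 the rise under TMM did not pass (adjusted p = 0.0797, 0.0738 and 0.0622). The share of miR-92b-5p in its hairpin went from 1.21% ± 0.0646 to 5.79% ± 1.22, without overlap (exact permutation p = 0.1). miR-32-5p, a further carrier of the seed, measured 64.6 ± 6.42 against 9.40 ± 5.04 CPM and fell by 2.72 (adjusted p = 5.96e-06). miR-519d-3p, the other tested carrier of a cluster seed (that of miR-17), measured 0.80 under TMM (adjusted p = 0.302) and rose by 1.998 under total library size (adjusted p = 0.000181), from at most 24 counts in any library. The X-linked paralogs miR-106a-5p, miR-18b-5p, miR-20b-5p and miR-363-3p had at most 8 counts in any library and were not tested.

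MIR17HG, the primary transcript of miR-17-92, did not pass the test. It measured 87.4, 74.7 and 72.0 CPM in control and 80.9, 85.1 and 73.9 CPM in ERI2 siRNA libraries, from 3073, 2767 and 2066 counts and 2555, 2868 and 2241 counts. The ERI2 siRNA values lay within the range of the control values. The log2 fold change was 0.04 (SE 0.0854, 95% interval -0.15 to 0.22, adjusted p = 0.828, edgeR's quasi-likelihood test) and 0.09 under total library size (adjusted p = 0.582). With replicates 2 and 3 alone MIR17HG measured 0.11 (adjusted p = 0.306). For comparison, 4.29% of 18843 tested genes were called higher and 4.25% lower. The host RNA and the miRNAs come from tables scaled separately, so the difference between them was not tested. The labels do not give the strand setting of the counting, so reads from an antisense partner could be included. The 5 genes of at least 10 CPM with profiles nearest to MIR17HG, out of 10314, were RNF128, ACVR1, ZNF17, RING1 and SLC25A28 (root-mean-square differences from 0.0331 to 0.0464).

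MCM7, the host gene of miR-106b-25, measured 520, 570 and 588 CPM in control and 567, 531 and 539 CPM in ERI2 siRNA libraries. Its groups overlapped, with a log2 fold change of -0.03 (adjusted p = 0.834, edgeR) that turned to 0.02 under total library size. The hairpin entry MIR25 in the RNA table held 53 to 87 counts per control library and 57 to 61 counts per ERI2 siRNA library and did not pass (log2 fold change -0.14, adjusted p = 0.741). None of the 5 tested genes among the hosts and known transcriptional drivers (MCM7, MYC, E2F1, E2F2 and E2F3) passed. MYC, which drives the MIR17HG promoter, measured 0.14, E2F2 -0.16, E2F3 0.05 and E2F1 -0.05 (0.01 under total library size) as log2 fold changes, and MYCN was too low to test.

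Among 11 genes of miRNA processing and loading, 1 was higher and 0 lower, beside 4.29% and 4.25% of all tested genes. TARBP2, a double-stranded RNA-binding partner of Dicer, measured 33.0, 33.6 and 36.3 CPM in control and 40.3, 40.6 and 42.8 CPM after ERI2 siRNA. The groups did not overlap, and its rise of 0.26 had an adjusted p of 0.0488 by edgeR. The rise did not pass without any one of 5 of the 6 libraries, the exception being ERI2 siRNA replicate 1, with adjusted p-values from 0.0907 to 0.199 in those 5. Nor did it pass with no filter (adjusted p = 0.0680, edgeR) or with the replicate number as a block (0.157). DGCR8, the partner of the nuclear enzyme Drosha, measured 0.29 (adjusted p = 0.0522, edgeR) and lay close to the threshold. Its groups overlapped, at 129, 107 and 111 CPM in control and 127, 148 and 150 CPM after ERI2 siRNA. DGCR8 passed in 7 of 15 alternatives. These were DESeq2 (adjusted p = 0.0233), upper quartile scaling (0.0445), no filter (0.0159) and a CPM filter (0.0481). The remaining passes were without control replicate 1 (0.0137), without ERI2 siRNA replicate 1 (0.0123) and with replicates 2 and 3 alone (log2 fold change 0.44, adjusted p = 0.000163). DGCR8 did not pass in the other 8, with 0.0510 under total library size and up to 0.207 without 1 library (edgeR). XPO5, the exporter of precursor hairpins, measured 0.16 (adjusted p = 0.155) and DICER1, which cuts them, 0.18 (adjusted p = 0.158). Under total library size 3 of the 11 were higher (27.3%) and 0 lower, beside 5.18% and 2.46% of all tested genes. With replicates 2 and 3 alone 2 were higher and 1 lower (18.2% and 9.09%), beside 13.9% and 14.1% of all genes then tested. HNRNPA1, named above for miR-18a-5p, measured -0.15 under TMM with all libraries (adjusted p = 0.415, edgeR), with overlapping groups. Its mean log2 difference in replicates 2 and 3 was -0.29.

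The messenger RNAs reported as targets of the 4 seed families were counted next. Of 59 genes in these lists 55 were tested, of which 1 was higher and 8 were lower, with a median log2 fold change of -0.09 beside 0.003 for all tested genes. That is 1.82% higher and 14.5% lower, beside 4.29% and 4.25% of all tested genes, and no test of that gap was made. With replicates 2 and 3 alone 5 of 56 were higher and 15 lower (8.93% and 26.8%), beside 13.9% and 14.1% of all 18915 genes then tested. Under total library size 3 were higher and 7 lower, beside 5.18% and 2.46% of all tested genes. Of 4 fibroblast markers, which summed to 5.48 to 6.71 CPM in control and 2.31 to 4.19 CPM after ERI2 siRNA, COL3A1 was the only one called and the only one to reach 1 CPM. COL3A1, a fibrillar collagen gene, fell by 1.05 (adjusted p = 0.0099), LUM measured 0.25 (adjusted p = 0.769) and COL1A2 was at 0, and their part in the target counts was not tested.

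Under TMM all 7 called targets of the miR-17 family, among 30 tested, were lower (23.3%), beside 4.25% of all tested genes. With total library size 6 were lower and 1 higher (20.0% and 3.33%), beside 2.46% and 5.18% of all tested genes. The higher 1 was VEGFA at 0.28 (adjusted p = 0.0376, edgeR). With replicates 2 and 3 alone 10 were lower and 2 higher (33.3% and 6.67%), beside 14.1% and 13.9%. CDKN1A, the p21 inhibitor of cyclin-dependent kinases, measured 64.8, 74.6 and 76.3 CPM in control and 45.3, 45.2 and 42.9 CPM after ERI2 siRNA. It fell by 0.69 on the log2 scale (adjusted p = 0.000928, edgeR). TXNIP, an inhibitor of thioredoxin, measured 39.6, 44.3 and 44.0 CPM against 29.0, 30.1 and 28.4 CPM and fell by 0.55 (adjusted p = 0.00284). Both had groups well apart. RB1, the retinoblastoma pocket protein, fell by 0.42 (adjusted p = 0.00593), and these 3 passed without any one library. With replicates 2 and 3 alone CDKN1A measured -0.78, TXNIP -0.60 and RB1 -0.49. KAT2B, a lysine acetyltransferase, fell by 0.37, STAT3, a cytokine-activated transcription factor, by 0.36, and BMPR2, a BMP receptor, by 0.28. HBP1, a repressor of cell-cycle genes, measured 40.1, 38.3 and 41.0 CPM against 34.9, 33.2 and 30.5 CPM. Adjusted p-values of these 4 genes ran from 0.0104 for KAT2B to 0.0495 for HBP1.

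KAT2B did not pass without ERI2 siRNA replicate 2 or 3 (adjusted p = 0.0551 and 0.0511). STAT3 and BMPR2 did not pass without control replicate 3 (0.0639 and 0.0616), ERI2 siRNA replicate 2 (0.0645 and 0.0887) or ERI2 siRNA replicate 3 (0.0561 and 0.0760). HBP1 did not pass without any one of 5 of the 6 libraries, the exception being ERI2 siRNA replicate 1 (adjusted p from 0.0656 to 0.219). In edgeR it also did not pass under total library size (0.0998), RLE scaling (0.0519) or upper quartile scaling (0.0625). Nor did HBP1 pass with the replicate number as a block (0.162, edgeR) or with limma-voom (0.0506).

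The other lists are shorter and had fewer calls, and 4.25% of all tested genes were called lower and 4.29% higher. Of 9 tested targets of the miR-18 family 0 passed, with DICER1 at 0.18, ATM, a DNA damage kinase, at 0.16, NR3C1, the glucocorticoid receptor, at -0.13 and SMAD4 at -0.09. Under total library size DICER1 passed as higher (adjusted p = 0.0475), 11.1% of the 9 beside 5.18% of all tested genes. With replicates 2 and 3 alone 1 of the 9 was higher (11.1%) and 2 were lower (22.2%). The shares of all genes then tested were 13.9% and 14.1%. Among the targets then called were ATM (0.22, adjusted p = 0.0167) and NR3C1 (-0.24, adjusted p = 0.0232). Of 9 tested targets of the miR-19 family 1 was lower (11.1%). This was ABCA1, a cholesterol exporter, at 13.4, 10.0 and 12.2 CPM in control and 6.30, 7.06 and 8.05 CPM after ERI2 siRNA. It fell by 0.73 (adjusted p = 0.0084, edgeR). PPP2R5E, a phosphatase subunit, measured -0.26 (adjusted p = 0.102). PPP2R5E passed with no filter (0.0324), without control replicate 1 (0.0445), without ERI2 siRNA replicate 1 (0.0330) and with replicates 2 and 3 alone (-0.40, adjusted p = 0.00407). Of 13 tested targets of the miR-92 family 1 was higher (7.69%). With replicates 2 and 3 alone 1 was higher and 2 were lower (7.69% and 15.4%). The higher 1 under TMM was SMAD7, an inhibitor of TGF-beta signalling, at 14.4, 13.9 and 13.8 CPM against 19.8, 18.1 and 18.2 CPM. SMAD7 rose by 0.41 (adjusted p = 0.0157) and did not pass without control replicate 2 or 3 or ERI2 siRNA replicate 2 or 3 (adjusted p from 0.0528 to 0.0703). CDKN1C, a second inhibitor of cyclin-dependent kinases, measured 0.48 (adjusted p = 0.0995), DKK3, a secreted Wnt modulator, 0.35 (adjusted p = 0.0806) and ITGA5, an integrin subunit, -0.19 (adjusted p = 0.143).

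**Figure D5:**
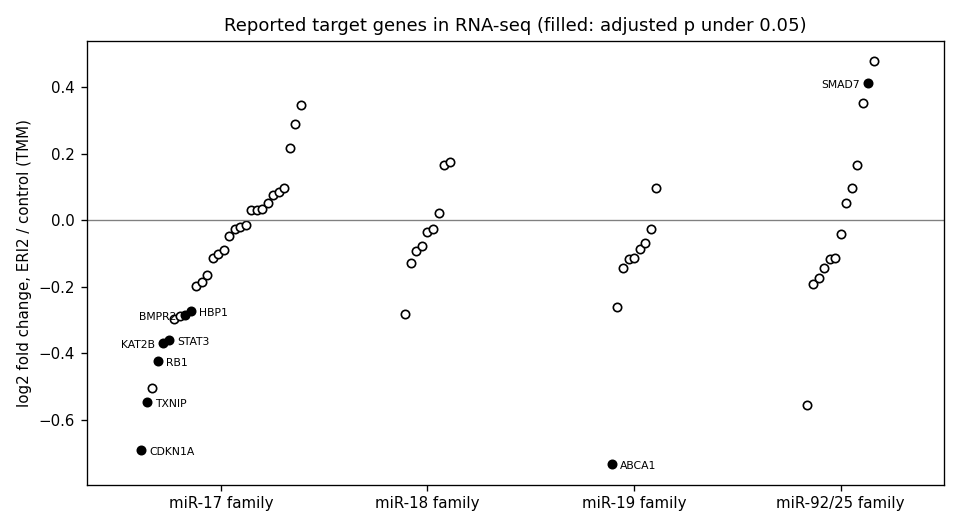
Log2 fold changes of ERI2 siRNA over control (TMM) for the reported target genes of each seed family, ordered by value within a family. Filled and named points passed an adjusted p of 0.05 over 18843 genes. Of the filled points 8 lie below 0, 7 of them in the miR-17 family, and SMAD7 lies above 0.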

How the data were processed

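The authors deposited raw read counts, per the labels one library per column: one table of counts per mature miRNA name and one of counts per gene, in 3 control and 3 ERI2 siRNA libraries each. TopHat2 2.0.10, CASAVA 1.8.2, build hg19 and HTSeq 0.6.1p1 are listed, with no role, per the submitters' processing notes. The small RNA kit, miRNA aligner, annotation and strand setting are not given in the sources used. Each table was filtered (filterByExpr), scaled by TMM and tested whole with edgeR 4.0.16 (robust quasi-likelihood, R 4.3.3) at a Benjamini-Hochberg adjusted p under 0.05, which left 1316 miRNA names and 18843 genes. The fit was also run on simulated counts, without a shift in make-up between groups like that of the miRNA libraries. That run cannot show how the fit behaves under such a shift. Shares and ratios used exact permutation tests. Alternatives were total library size, RLE, upper quartile, DESeq2 1.42.0, limma-voom 3.58.1, other filters, the replicate number as a block, each library left out, replicates 2 and 3 alone and miR-10a-5p left out; scaling to names numbered up to 1000 was added after the data were seen. The members and lists were chosen with earlier results of these data known. Named genes are the members, their opposite arms and paralogs, and the 5 nearest profiles. Also named are list genes past the test or with the 4 smallest p-values per list, and HNRNPA1. No coordinates are given, because the sequence table is of another build than hg19.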

Additional observations from a re-analysis of the deposited data

How the results depend on the processing

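All 9 cluster miRNAs were called lower under every alternative except scaling to names numbered up to 1000, which called 3. Under that scaling the log2 fold change turned to 0.21 for miR-92a-3p, 0.22 for miR-92b-3p, 0.58 for miR-18a-3p, 1.09 for miR-19a-5p and 0.86 for miR-92a-1-5p, with 1117 miRNA names called higher and 72 miRNA names called lower. Total library size gave 1031 higher and 179 lower, upper quartile 580 higher, and no filter 223 higher, against 146 and 303 under TMM; leaving out 1 library gave 74 to 146 higher and 278 to 328 lower. Total library size turned miR-19a-5p to 0.31 and miR-92a-1-5p to 0.072, and moved the summed miR-17-92 log2 ratio to -0.64 (-1.86 under TMM) and that of miR-106b-25 to -1.06 (-2.28 under TMM). The 809 genes called higher and 800 genes called lower became 463 lower under total library size, 1290 higher with no filter, 2622 and 2670 with replicates 2 and 3 alone, and 176 to 1424 higher and 195 to 1327 lower without 1 library. For target genes, 1 higher and 8 lower became 3 higher under total library size, 2 under upper quartile, 2 with no filter, 5 and 15 with replicates 2 and 3 alone, and 0 to 3 higher and 4 to 9 lower without 1 library. MIR17HG ran from -0.032 to 0.12 without 1 library (-0.032 without control replicate 3 and -0.012 without ERI2 siRNA replicate 2). MCM7 turned to 0.025 and E2F1 to 0.012 under total library size; with replicates 2 and 3 alone E2F1 was 0.0031 and MYC -0.067. Without 1 library the share difference of miR-25-3p ran from -0.626 to 0.628 percentage points, and opposite-arm differences from -0.478 to 0.393 for miR-17, -0.0596 to 0.0726 for miR-20a, -0.0269 to 0.189 for miR-19b-1 and -0.939 to 4.06 for miR-106b. Same-numbered libraries did not deviate together (r from -0.14 to 0.002 for miRNA and from -0.30 to -0.08 for RNA). The labels do not say whether same-numbered libraries were paired, and pairing itself was not tested. The replicate block gave 108 miRNA names higher, 292 lower and 9 of 9 cluster miRNAs lower. For RNA the block gave 105 genes higher and 98 lower. Of the target genes 0 were then higher and 3 lower (CDKN1A, TXNIP and RB1), with ABCA1 at an adjusted p of 0.0501. The cause of these changes was not tested. Low counts kept 3 of the 9 opposite arms and 4 of the 5 paralogs out of the tests.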
